A study of Mus musculus with 24 samples.

Results

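E0771 and E0771-LG are mouse breast carcinoma lines, and the genes described are those whose response to a hairpin against Ptn differed between them, either by changing in opposite directions or by changing in 1 line. RNA was sequenced from 12 cell samples of the 24 samples in the series. A gene was a member when the change in E0771-LG minus the change in E0771, the interaction, had an adjusted p under 0.05 and it fell in an opposite or 1-line class by the tests within each line. There were 3275 such genes among 10608 tested and 12091 in the table.

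E0771, a C57BL/6 mammary carcinoma line that seeds few metastases, gave the groups E0771shCtrl and E0771shPTN, and E0771-LG, grown from a lung metastasis of E0771, gave E0771-LGshCtrl and E0771-LGshPTN, each with 3 samples. All 4 groups were infected with the puromycin-resistance plko vector, kept in puromycin and grown in DMEM with serum; the control hairpin was aimed at EGFP, and 1 hairpin against Ptn served in both lines. Each group is an infected and selected population, so a lower Ptn level and the separate infection and selection of the populations cannot be told apart, and the tests measure the spread between samples of these populations. The samples held 15627925 to 21117920 reads. Values are log2 CPM, reads scaled to a common library size after 0.5 reads were added, and ± gives the SE from limma with 3 samples a group.

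Pleiotrophin, the product of Ptn, is a secreted growth factor that binds heparan sulfate and is closely related to midkine. It binds syndecans, the receptor tyrosine phosphatase PTPRZ1 and integrin alpha-v beta-3, and it is known for its part in neurite outgrowth, angiogenesis and the growth and spread of carcinomas. Tumor cells and stroma can both release it.

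Ptn (ENSMUSG00000029838, mm10 chromosome 6, 36714929 to 36810220) checks the labels. Its log2 level was 2.90, 2.18 and 2.28 in E0771shCtrl and -0.63, 0.25 and 0.53 in E0771shPTN. In the derived line it was 3.65, 4.51 and 3.74 in E0771-LGshCtrl and 1.42, 0.98 and 1.38 in E0771-LGshPTN. All knockdown samples lay below all control samples of their line, and the E0771-LGshPTN samples, at 56, 35 and 45 reads, kept more Ptn than the E0771shPTN samples, at 12, 21 and 22 reads. The fall was -2.40 ± 0.34 in E0771 and -2.71 ± 0.34 in E0771-LG. Their difference was -0.30 ± 0.48 (adjusted p = 0.651), so Ptn itself is not among the 3275 genes, and a difference of a size within that SE was not detectable.

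Among 13 tested genes of pleiotrophin, midkine and their receptors, 1 was more positive and 4 were more negative in E0771-LG by the interaction, and 8 were not called; over all genes tested 18.3% were more positive and 15.7% more negative. The negative count was 5 with median-of-ratios size factors and with quantile normalization. The integrin subunit Itgav stood at 7.28, 7.20 and 7.30 in E0771-LGshCtrl and 6.33, 6.19 and 6.38 in E0771-LGshPTN, against 7.22 to 7.59 in the 6 E0771 samples. Itgav fell only in the derived line by these tests (interaction -0.83 ± 0.14, adjusted p = 0.000597). The heparan sulfate proteoglycan Sdc2 followed the same course, with 6.91, 6.64 and 6.69 in E0771-LGshCtrl and 6.04, 5.86 and 5.97 in E0771-LGshPTN, and an interaction of -0.75 ± 0.14 (adjusted p = 0.00135). Its relative Sdc4 rose in E0771 instead, from 6.80, 7.44 and 7.13 to 7.75, 7.74 and 7.66 (interaction -0.66 ± 0.18, adjusted p = 0.0131). Mdk, which encodes midkine, had 21, 10 and 11 reads in E0771-LGshCtrl and 1, 5 and 5 in E0771-LGshPTN, but 65, 61 and 91 in E0771shCtrl and 243, 109 and 160 in E0771shPTN. The groups did not overlap in either line, in opposite directions, although the difference in E0771 missed its own threshold (1.21 ± 0.56, adjusted p = 0.161; interaction -3.18 ± 0.80, adjusted p = 0.00755). Ptprz1 was the member more positive in E0771-LG (2.39 ± 0.85, adjusted p = 0.0412), at 13, 22 and 12 reads in E0771-LGshCtrl and 69, 82 and 62 in E0771-LGshPTN, and it lost its call without most single samples and with the replicate number as a block.

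Some features of the samples cut across the gene groups and stand before the results. Marker genes were measured first. Of 8 epithelial markers, Krt8 was the most abundant in all 12 samples, while Cldn4 had 0 reads throughout and Krt19 had 5, 4 and 1 reads in E0771-LGshPTN and 0 elsewhere. The summed epithelial level was 99.5 to 116 CPM in the 6 E0771 samples, 159, 204 and 164 in E0771-LGshCtrl and 424, 565 and 516 in E0771-LGshPTN. Krt8, a keratin of simple epithelia, carried that sum, and Cdh1, which encodes E-cadherin, had at most 7 reads in any sample. Of 12 leukocyte markers 10 were in the table; Tyrobp had 0 reads in all samples, Adgre1, Cd3e and Itgam had at most 3 reads, and Ptprc had at most 13. The summed leukocyte level was 18.4, 29.0 and 23.1 CPM in E0771shCtrl and 57.7, 44.9 and 51.6 in E0771shPTN, led by Lyz2 in the latter. It was 91.8, 87.3 and 91.4 in E0771-LGshCtrl and 53.2, 58.9 and 61.7 in E0771-LGshPTN, and Laptm5, a lysosomal membrane gene, made up most of it in these 6 samples. Other members went against the sum: in E0771-LG Lyz2 had 40, 69 and 76 reads in the controls and 131, 154 and 156 with knockdown, and Cd68 had 20, 11 and 27 against 70, 105 and 84. In E0771 Cd68 had 94, 311 and 171 reads in the controls and 114, 83 and 72 with knockdown. Of 8 endothelial markers 5 were in the table, summing to 3.27 to 12.1 CPM with Tie1 the most abundant.

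Fibroblast markers differed between the groups. Of the 10 in the list 9 were in the table, and their sum was 75.1, 101 and 86.8 CPM in E0771shCtrl and 331, 293 and 331 in E0771shPTN, where Col3a1 was the most abundant. In E0771-LGshCtrl it was 92.3, 145 and 108 CPM, led by Pdgfra, and in E0771-LGshPTN 58.5, 66.5 and 74.0. Not all members followed the sum in E0771-LG: Dcn, which encodes decorin, had 19, 30 and 5 reads in E0771-LGshCtrl and 34, 61 and 49 in E0771-LGshPTN, and the collagen gene Col1a2 had 8, 21 and 15 against 48, 46 and 19. Thy1 and Lum, which mark fibroblasts, had at most 1 and 3 reads in any sample, and Postn had at most 4. The part of other cells in the collagen and matrix results was not tested beyond these levels.

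Transcript length went with the response in the derived line. With the tested genes in 5 groups of equal size by the length of their longest GENCODE transcript, the median change in E0771-LG went from 0.43 in the shortest group (median 1443 bases) to -0.30 in the longest (median 6835 bases). In E0771 the same medians were -0.01 and -0.06. By the interaction, 34.1% of the shortest genes were more positive in E0771-LG and 3.49% more negative, against 5.61% and 29.8% of the longest. The 3 E0771-LGshPTN samples stood apart: their shortest genes exceeded their longest by 0.56, 0.77 and 0.56 relative to the mean of all samples, and the other 9 samples ranged from -0.48 to 0.10. Ribosomal protein genes such as Rpl4 (1538 bases) and Rps15 (572 bases) are short and matrix genes such as Col1a1 (5930 bases) are long. With the trend of each sample on length removed, an alternative chosen after the data were seen, 3416 genes were called by the interaction.

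Chromosome 18 also differed. Its 264 tested genes had a median change of -0.48 in E0771-LG and -0.13 in E0771, while the medians of the other 19 chromosomes lay between -0.03 and 0.21 in E0771-LG. By the interaction 13 of the 264 were more positive and 97 more negative in E0771-LG. Relative to the other chromosomes its genes stood at -0.34, -0.32 and -0.31 in E0771-LGshPTN and at 0.23, 0.16 and 0.19 in E0771-LGshCtrl, against -0.02 to 0.16 in the E0771 samples. In windows of 20 Mb along the chromosome the median change in E0771-LG ran from -0.39 to -0.60 in all 5. Ndst1, Pcdhgb1, Pcdhgc5, Stard4, Zeb1 and the fibroblast marker Pdgfrb, described with their classes and lists, lie on it, and a change in the copy number of the chromosome in that population was not tested. Without its genes, again an alternative chosen later, 3486 genes were called.

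**Figure D1:**
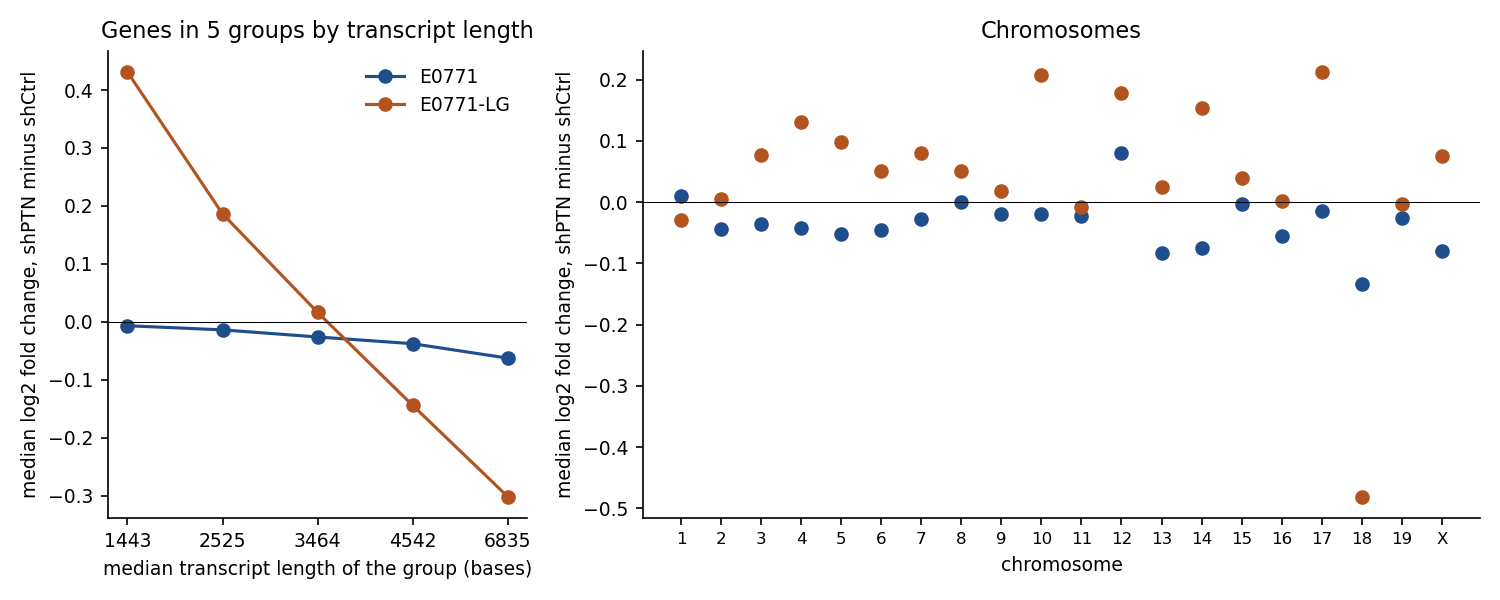
Median log2 fold change, shPTN minus shCtrl, in E0771 (blue) and E0771-LG (brown), over 5 groups of genes by transcript length (left) and by chromosome (right). The E0771-LG medians go from 0.43 in the shortest group to -0.30 in the longest, and chromosome 18 lies at -0.48.

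Genes that tell the lines apart were used to check the labels of the knockdown samples, with limits of 100 and 5 reads chosen after the values were seen. Sox7, a transcription factor gene, had 133 to 294 reads in the 6 E0771 samples and 0 in all 6 E0771-LG samples, and Slc8a2, a sodium-calcium exchanger gene, had 163 to 296 against 0 to 4. Conversely Tpbg, Epop and Sohlh2 had at most 4 reads in the E0771 samples and at least 169 in all 6 E0771-LG samples. The 6 E0771 samples and E0771-LGshCtrl served to choose the genes, so their levels check E0771-LGshPTN alone. There these 5 of 11 genes kept to the limits and the others did not: Tmem185b had 23, 41 and 33 reads and Arhgap28 had 58, 66 and 65, below the 127 or more of E0771-LGshCtrl, while C1qtnf12 had 16, 12 and 10 and Hcfc1r1 had 6 in replicate 3. H2-K1 and Sema3c also broke the limits there and are described with their class. Hcfc1r1, with 0, 1 and 3 reads in E0771-LGshCtrl and 2, 2 and 6 in E0771-LGshPTN, overlapped between these groups. With genes chosen on the control samples alone, an alternative added after the data were seen, 11 of 19 kept to the limits in E0771shPTN and 12 of 19 in E0771-LGshPTN.

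More genes differed between knockdown and control in E0771-LG than in E0771. In E0771, 807 genes (7.61%) rose and 1093 (10.3%) fell, and in E0771-LG 2762 (26.0%) rose and 2534 (23.9%) fell. The interaction called 3603 genes (34.0%), of which 1942 (18.3%) were more positive in E0771-LG and 1661 (15.7%) more negative. The median gene changed by -0.03 in E0771 and 0.05 in E0771-LG, with a median interaction of 0.08. The balance of the interaction calls depended on the scaling and the cutoff, with 1728 more positive and 1891 more negative with median-of-ratios size factors, 1631 and 1698 with quantile normalization, and 900 and 973 at an adjusted p under 0.01.

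The 3275 members fell into 3 kinds, set by the measured values themselves. Opposite changes were found for 344 genes, 148 of which rose in E0771-LG and 196 fell there. Another 486 genes passed in E0771 alone, 227 up and 259 down, and 2445 passed in E0771-LG alone, 1384 up and 1061 down. The remaining genes called by the interaction were 132 that changed the same way by a different amount and 196 called in neither line. A change under 0.3 on the log2 scale in the other line was found for 185 of the 227, 207 of the 259, 1117 of the 1384 and 948 of the 1061. Tet2, a 5-methylcytosine dioxygenase gene, lay just inside the interaction threshold (adjusted p = 0.0499 with limma). Its adjusted p was above 0.05 with quantile normalization, without the filter or without most single samples. Cpeb1, which encodes an RNA-binding protein, lay just outside (adjusted p = 0.0501 with limma).

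The opposite class depended on the E0771 samples. Its 344 genes became 189 without E0771shCtrl replicate 2, 166 without replicate 3 of that group, 217 without E0771shPTN replicate 2 and 183 without E0771shPTN replicate 3. The 486 genes of E0771 alone became 294 and 301 without E0771shCtrl replicates 2 and 3. At an adjusted p under 0.01 the interaction called 1873 genes, of which 104 were opposite, 238 in E0771 alone and 1361 in E0771-LG alone.

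**Figure D2:**
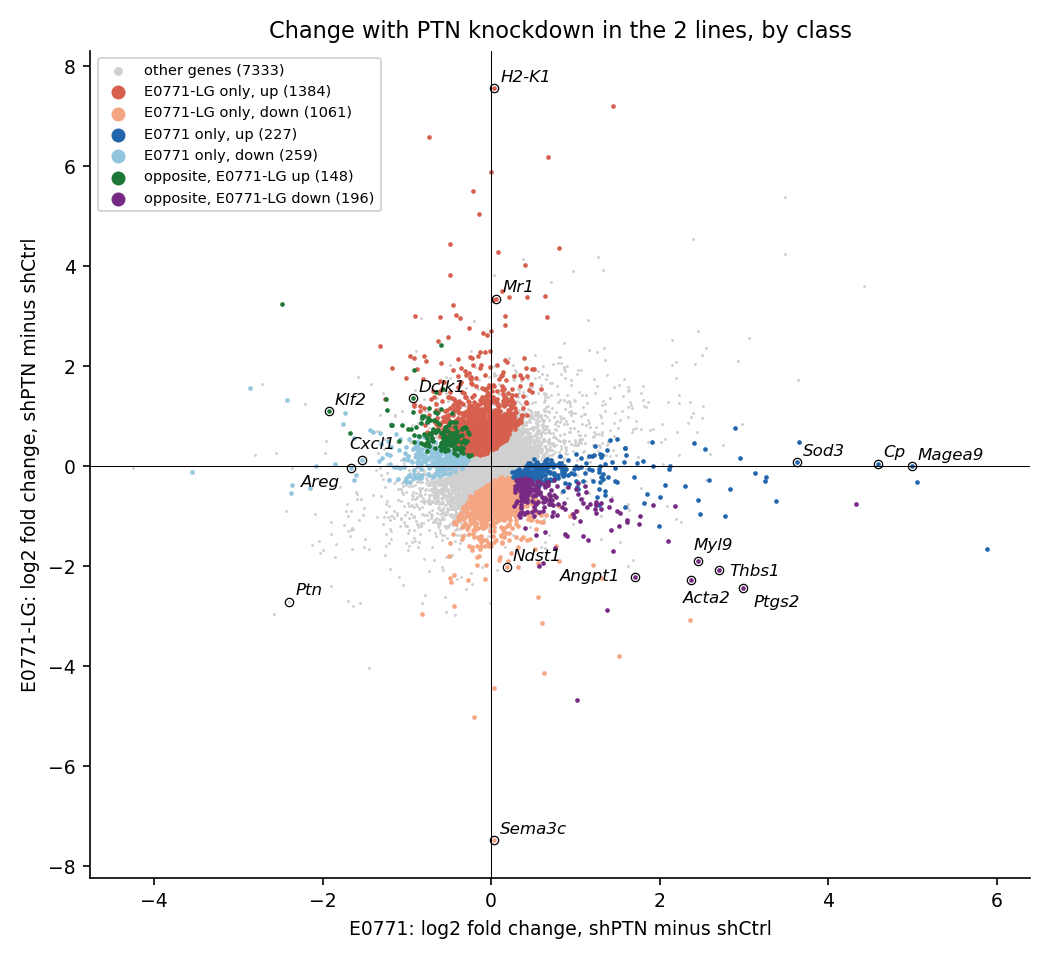
Log2 fold change with PTN knockdown in E0771 (horizontal) against E0771-LG (vertical), 1 point a gene, colored by class, with other tested genes in gray. Opposite genes lie in the upper left (148) and lower right (196), and Ptn lies at -2.40 and -2.71.

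Of the genes that rose in E0771 and fell in E0771-LG, the 5 ranked first were Ptgs2, Acta2, Thbs1, Myl9 and Angpt1. Acta2, which encodes smooth muscle actin, stood at 5.33, 4.58 and 4.93 in E0771shCtrl and 7.10, 7.72 and 7.15 in E0771shPTN. In the derived line Acta2 went the other way, from 5.75, 4.58 and 5.16 in E0771-LGshCtrl to 3.05, 3.14 and 2.50 in E0771-LGshPTN. Control samples of the lines overlapped, while all E0771shPTN samples lay above and all E0771-LGshPTN samples below them. The change was 2.38 ± 0.30 in E0771 and -2.27 ± 0.30 in E0771-LG (interaction -4.64 ± 0.42, adjusted p = 3.03e-05).

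Myl9, a regulatory light chain of myosin II, rose from 2.26, 2.16 and 2.95 to 4.73, 5.03 and 4.98 in E0771. In E0771-LG it fell from 4.30, 3.80 and 4.36 to 2.68, 2.03 and 2.10, so that the knockdown samples of each line sat near the control samples of the other (interaction -4.34 ± 0.34, adjusted p = 1.66e-06). Thbs1 encodes thrombospondin-1, a matrix glycoprotein that restrains angiogenesis and releases TGF-beta from its latent form. Its levels were 4.35, 3.23 and 3.39 in E0771shCtrl, 5.87, 6.87 and 6.34 in E0771shPTN, 4.59, 3.79 and 4.62 in E0771-LGshCtrl and 2.32, 2.36 and 2.10 in E0771-LGshPTN. The control groups overlapped and the knockdown groups lay on either side of them (interaction -4.78 ± 0.45, adjusted p = 2.93e-05). Angpt1, a ligand of the endothelial receptor Tie2, rose from 4.20, 3.39 and 3.69 to 5.31, 5.55 and 5.53 in E0771 and fell from 2.29, 2.46 and 2.23 to 0.90, -0.22 and -0.37 in E0771-LG. All E0771 samples held more Angpt1 than any E0771-LG sample, and the gap widened with knockdown (interaction -3.93 ± 0.41, adjusted p = 2.13e-05).

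Ptgs2, which encodes the prostaglandin synthase COX-2, was near absent in E0771, with 0, 2 and 0 reads in E0771shCtrl and 3, 18 and 4 in E0771shPTN. It had 615, 923 and 606 reads in E0771-LGshCtrl and 138, 111 and 149 in E0771-LGshPTN. The fall in E0771-LG (-2.43 ± 0.63) thus rests on 111 or more reads in each sample and the rise in E0771 on 25 reads against 2, a ratio of 12.8 (95% Clopper-Pearson interval 3.19 to 112, counting error only). The fitted interaction, -5.42 ± 0.88 (adjusted p = 0.000515), depends on the 0.5 reads added.

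In the reverse class, down in E0771 and up in E0771-LG, the 5 ranked first were Dnase1l1, Nudt18, Klf2, Dclk1 and Trpm4. Klf2, a Krüppel-like transcription factor that holds endothelial and T cells quiescent, fell from 6.51, 6.84 and 6.82 to 4.91, 4.62 and 4.86 in E0771. In E0771-LG it rose from 6.04, 5.79 and 5.78 to 6.73, 7.17 and 7.03. The E0771-LGshPTN samples reached the level of E0771shCtrl, and the E0771shPTN samples lay below all others (interaction 3.04 ± 0.19, adjusted p = 2.26e-07). Dclk1, a microtubule-binding kinase, fell from 4.73, 4.76 and 4.79 to 3.85, 3.78 and 3.85 in E0771 and rose from 2.47, 1.78 and 1.96 to 3.45, 3.32 and 3.52 in E0771-LG. The control groups of the lines lay far apart and the knockdown groups less than 1 log2 unit apart (interaction 2.29 ± 0.24, adjusted p = 2.28e-05).

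Nudt18, a hydrolase of oxidized nucleotides, went from 4.10, 4.68 and 4.57 to 3.21, 3.12 and 3.33 in E0771 and from 2.99, 3.18 and 2.27 to 3.67, 4.16 and 3.96 in E0771-LG. Its groups did not overlap within either line, and the order of the lines turned over (interaction 2.35 ± 0.32, adjusted p = 0.000158). Dnase1l1, a relative of the nuclease DNase I, changed by -1.24 ± 0.29 and 1.35 ± 0.29 (interaction 2.59 ± 0.42, adjusted p = 0.000549), with E0771shPTN replicate 2 the lowest of its group at 2.37 against 3.76 and 3.55. Trpm4, a calcium-activated cation channel, changed by -0.93 ± 0.27 and 1.09 ± 0.27 (interaction 2.02 ± 0.39, adjusted p = 0.00171). The glutathione transferase Gsta4, which clears lipid aldehydes and was named through its list, rose in E0771-LG from 2.60, 3.13 and 2.98 to 5.30, 5.50 and 5.18, and fell from 5.61, 5.55 and 5.65 to 5.16, 4.80 and 5.07 in E0771 (interaction 3.02 ± 0.21, adjusted p = 5.6e-07).

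**Figure D3:**
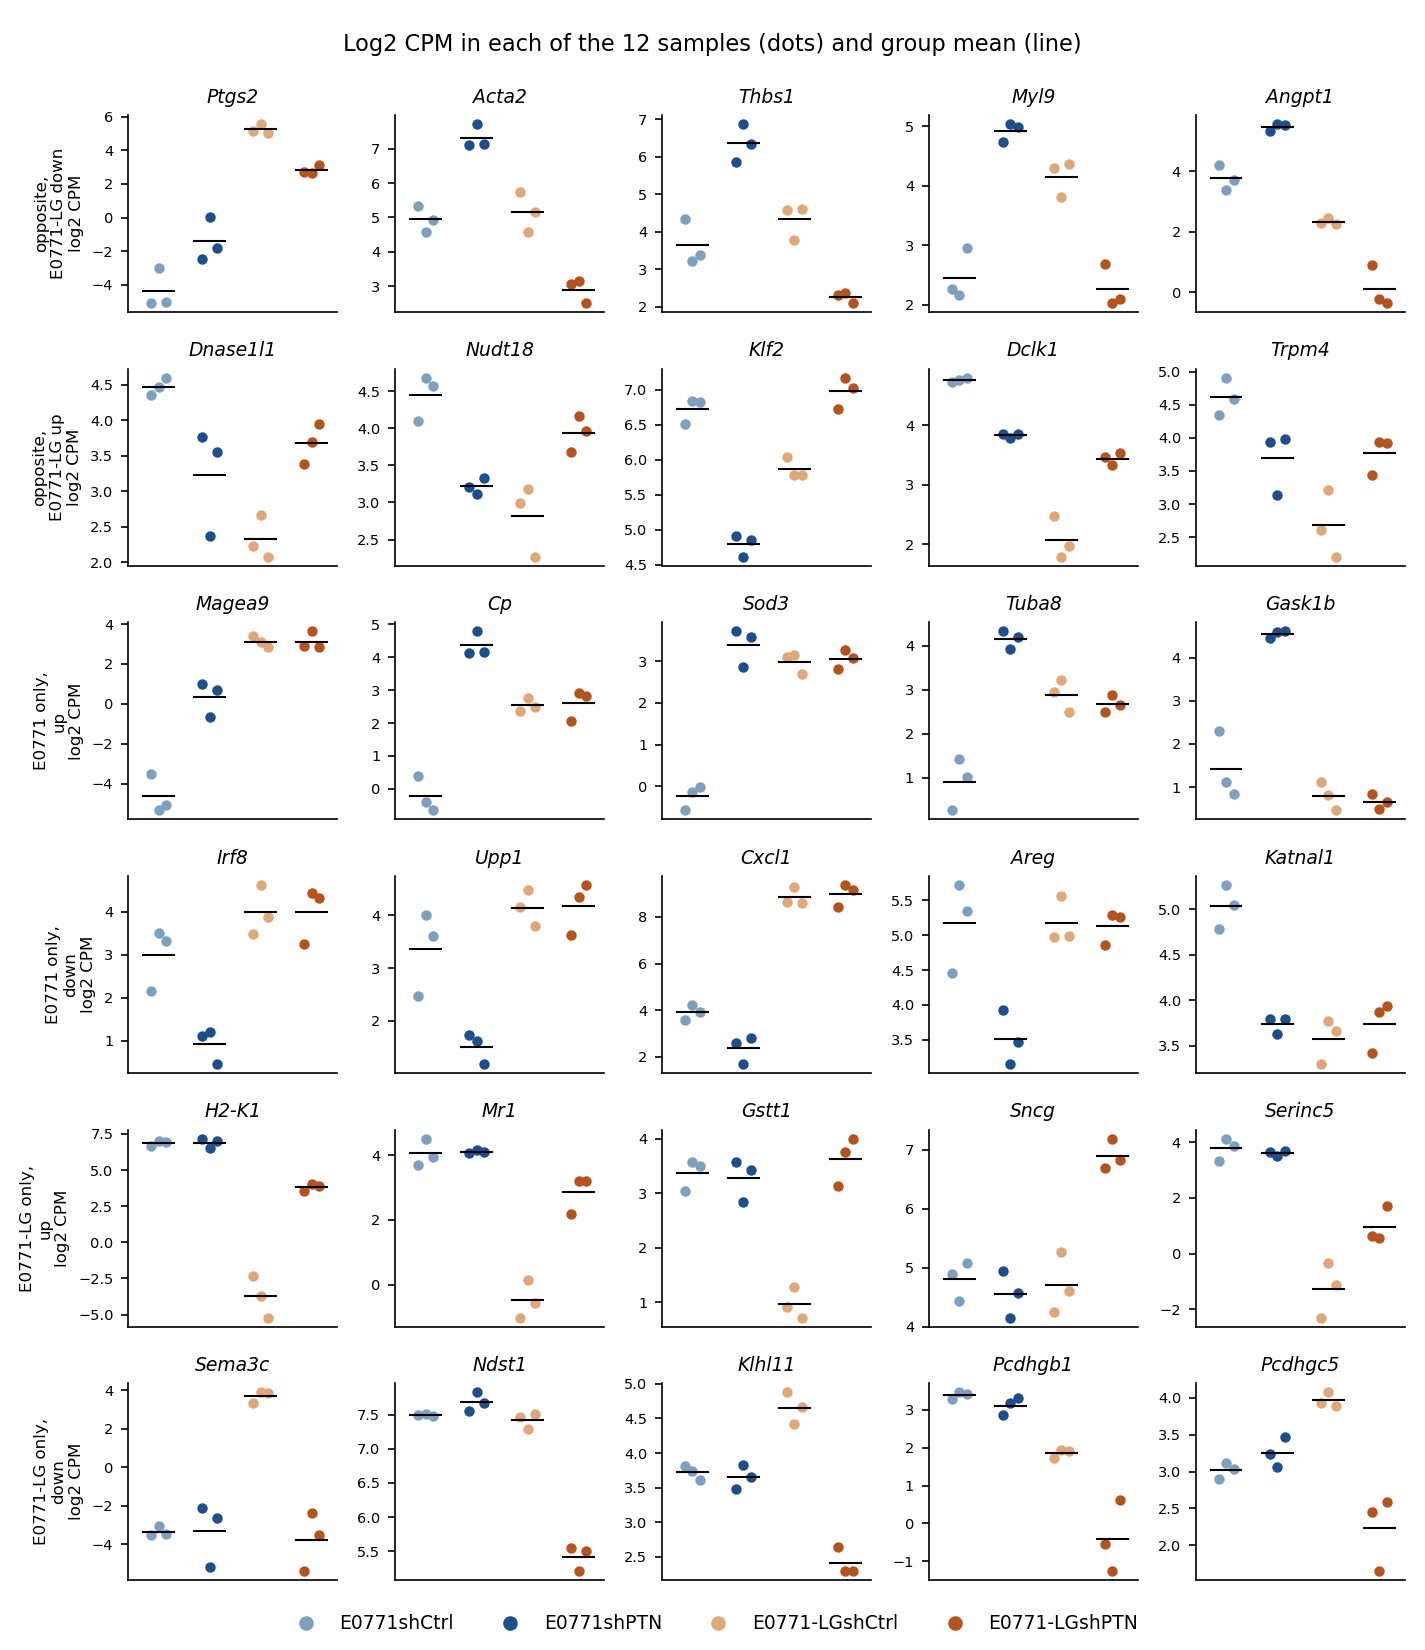
Log2 CPM of 30 genes, 5 from each class, in each of the 12 samples (dots, colored by group) with the group mean (line). The vertical scale differs between genes; Acta2 spans 2.50 to 7.72 and Klf2 spans 4.62 to 7.17.

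Of the genes that rose in E0771 alone, the 5 ranked first were Magea9, Cp, Sod3, Tuba8 and Gask1b. Cp, which encodes the copper-carrying ferroxidase ceruloplasmin, stood at 0.38, -0.40 and -0.66 in E0771shCtrl and 4.13, 4.79 and 4.17 in E0771shPTN. The 6 E0771-LG samples held Cp at 2.05 to 2.91, with control and knockdown overlapping (interaction -4.54 ± 0.44, adjusted p = 1.3e-05). Sod3, the extracellular superoxide dismutase, bound by heparan sulfate like pleiotrophin, was at -0.58, -0.14 and -0.01 in E0771shCtrl and 3.72, 2.85 and 3.58 in E0771shPTN. Its E0771-LG samples, at 2.70 to 3.27, fell in the range around the E0771shPTN samples (interaction -3.55 ± 0.39, adjusted p = 2.53e-05). Tuba8, an alpha-tubulin, rose from 0.25, 1.42 and 1.01 to 4.33, 3.92 and 4.21 in E0771 and stood at 2.49 to 3.21 in E0771-LG (interaction -3.48 ± 0.40, adjusted p = 3.59e-05). Gask1b, a secreted kinase-like protein of the Golgi, differed in that its E0771-LG samples, at 0.46 to 1.12, were as low as E0771shCtrl, while E0771shPTN had 4.45, 4.59 and 4.61 (interaction -3.27 ± 0.48, adjusted p = 0.000258). Magea9, a melanoma-associated antigen gene normally confined to the germ line, had 1, 0 and 0 reads in E0771shCtrl and 38, 11 and 25 in E0771shPTN, a ratio of 75.8 from summed reads (95% interval 13.2 to 3030, counting error only). It had 124 to 223 reads in the 6 E0771-LG samples, and its fitted change depends on the 0.5 reads added.

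Of the genes that fell in E0771 alone, the 5 ranked first were Irf8, Upp1, Cxcl1, Areg and Katnal1. Areg encodes amphiregulin, an EGF receptor ligand of mammary duct growth. It went from 4.46, 5.72 and 5.35 in E0771shCtrl to 3.93, 3.15 and 3.46 in E0771shPTN and stood at 4.86 to 5.57 in the 6 E0771-LG samples (interaction 1.62 ± 0.43, adjusted p = 0.0127). Areg was thus lowest in E0771shPTN. Irf8, a transcription factor of myeloid cells and interferon responses, went from 2.15, 3.52 and 3.33 to 1.10, 1.20 and 0.46 in E0771 and overlapped between the E0771-LG groups, at 3.25 to 4.63 (interaction 2.08 ± 0.59, adjusted p = 0.0172). Cxcl1, a chemokine that draws neutrophils, was at 8.43 to 9.37 in E0771-LG, far above the 3.60, 4.22 and 3.91 of E0771shCtrl and the 2.60, 1.70 and 2.82 of E0771shPTN. The interaction of Irf8 and of Cxcl1 no longer passed with voom weights. Upp1, which cleaves uridine, fell by -1.85 ± 0.35 in E0771 (interaction 1.89 ± 0.50, adjusted p = 0.012), and its replicate 1 in E0771shCtrl was the lowest of the group at 2.47 against 4.01 and 3.61. Katnal1, a microtubule-severing ATPase, fell from 4.78, 5.27 and 5.05 to 3.80, 3.63 and 3.79, into the 3.30 to 3.93 range of the E0771-LG samples (interaction 1.46 ± 0.25, adjusted p = 0.000756).

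Of the genes that rose in E0771-LG alone, H2-K1 and Mr1 ranked first. H2-K1, the heavy chain of a classical MHC class I molecule, had 1688 to 2787 reads in the 6 E0771 samples but 3, 1 and 0 reads in E0771-LGshCtrl. In E0771-LGshPTN it had 250, 291 and 254 reads. Summed reads gave a ratio of 195 between the E0771-LG groups (95% interval 75.8 to 717, counting error only), and the fitted interaction of 7.52 depends on the added 0.5 reads. Knockdown samples of E0771-LG thus held H2-K1 at a level between the other groups. Mr1, an MHC class I-like molecule that presents vitamin B metabolites, stood at 3.71 to 4.51 in the E0771 samples, at -1.02, 0.13 and -0.57 in E0771-LGshCtrl and at 2.18, 3.21 and 3.21 in E0771-LGshPTN (interaction 3.30 ± 0.46, adjusted p = 0.000181). Tap2, a subunit of the peptide transporter that loads MHC class I, rose from 4.49, 5.11 and 4.43 to 5.60, 5.57 and 5.64 in E0771-LG and lay at 5.59 to 5.98 in E0771 (interaction 0.89 ± 0.23, adjusted p = 0.00835). For these 3 genes the E0771-LGshCtrl samples were the lowest of the 12. Other genes of antigen presentation were not called by the interaction, with 0.35 ± 0.23 for H2-D1 (adjusted p = 0.256), 0.30 ± 0.25 for B2m (adjusted p = 0.379), 0.02 ± 0.39 for Tap1 (adjusted p = 0.976) and -0.78 ± 0.30 for the immunoproteasome subunit Psmb8 (adjusted p = 0.0539). Psmb8 passed with a pseudocount of 1, median-of-ratios size factors, quantile normalization, voom weights, the replicate number as a block and the length trend removed. It also passed without E0771shPTN replicate 2. Psmb9 and Nlrc5 were not called in either line, and Tapbp, the chaperone tapasin, fell in E0771-LG by -0.71 ± 0.20 (adjusted p = 0.00921).

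Gstt1, a glutathione transferase, rose from 0.91, 1.28 and 0.71 to 3.13, 3.76 and 4.00 in E0771-LG, into the 2.84 to 3.57 range of E0771 or above it (interaction 2.75 ± 0.38, adjusted p = 0.000165). Serinc5, a membrane protein that restricts retroviruses, rose from 3, 15 and 8 reads to 32, 26 and 56 while E0771 samples had 172 to 356 (interaction 2.38 ± 0.62, adjusted p = 0.00896). Sncg, gamma-synuclein, went past every other sample instead, from 4.25, 5.26 and 4.60 to 6.69, 7.19 and 6.82, with 4.15 to 5.08 in E0771 (interaction 2.45 ± 0.38, adjusted p = 0.000717). Krt8 behaved in the same way, at 8.62, 9.07 and 8.93 in E0771-LGshPTN, 7.16, 7.55 and 7.21 in E0771-LGshCtrl and 6.47 to 6.74 in E0771 (interaction 1.62 ± 0.18, adjusted p = 2.59e-05).

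Of the genes that fell in E0771-LG alone, Sema3c, a secreted semaphorin that guides axons and vessels, had 176, 292 and 274 reads in E0771-LGshCtrl and 0, 3 and 1 in E0771-LGshPTN. It had 0 to 4 reads in the E0771 samples, so E0771-LGshCtrl was the only group of the 4 with the transcript at more than 4 reads. From summed reads the fall was 189-fold (95% interval 73.6 to 696, counting error only). Ndst1 adds the N-sulfates of heparan sulfate, the polysaccharide that pleiotrophin binds. It lay at 7.48, 7.29 and 7.52 in E0771-LGshCtrl and 5.54, 5.20 and 5.50 in E0771-LGshPTN, below the 7.49 to 7.83 of E0771 (interaction -2.20 ± 0.15, adjusted p = 4.25e-07). The fall of Ndst1, -2.02 ± 0.11, was larger than the median of its chromosome, 18. Klhl11, an adaptor of a ubiquitin ligase, fell from 4.88, 4.42 and 4.67 to 2.64, 2.29 and 2.29, with 3.48 to 3.83 in E0771 (interaction -2.18 ± 0.24, adjusted p = 2.68e-05). The gamma-protocadherins Pcdhgb1 and Pcdhgc5, adhesion molecules whose transcripts share exons so that their reads may not be told apart, fell by -2.27 ± 0.36 and -1.74 ± 0.23.

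Beside the genes taken by the naming rule, Ptprz1, Pmvk, Zeb1, Zeb2, Vim, Sparc, Dusp1, H2-D1, B2m, Tap1, Psmb8, Psmb9, Nlrc5, Tapbp, Psat1, Slc7a11, Twist1, Twist2, Mmp14, Dcn, Col1a2, Usp18, Isg15, Oas3, Ccn1, Ajuba, Amotl2 and Cyp51 were chosen for mention after their values were seen. Gene lists were then counted by the interaction and read against 18.3% more positive and 15.7% more negative among all genes tested. Their counts within a line stand against 7.61% up and 10.3% down in E0771 and 26.0% up and 23.9% down in E0771-LG. The plot of the 22 pathway lists shows the largest shares of negative calls in YAP and TAZ targets, cholesterol synthesis and mesenchymal genes, and of positive calls in ribosomal proteins, stress-response genes and immediate early factors.

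**Figure D4:**
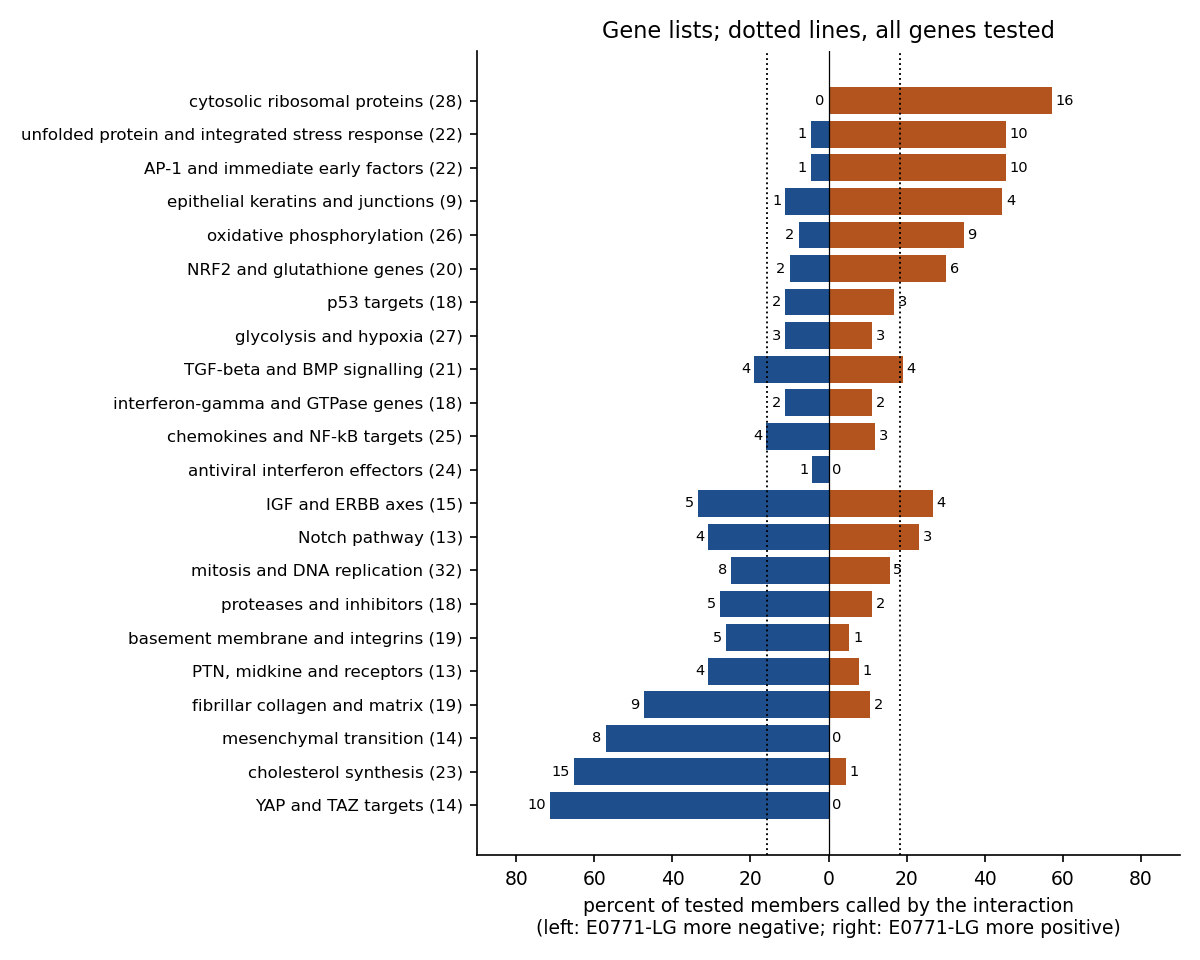
Percent of tested members called by the interaction in each of 22 gene lists, with E0771-LG more negative to the left (blue) and more positive to the right (brown); the number at each bar is the count, and dotted lines mark 15.7% and 18.3% over all genes. Of 14 YAP and TAZ genes, 10 were more negative and 0 more positive.

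YAP and TAZ are coactivators that bind TEAD factors and carry the signals of cell tension and the Hippo pathway into the nucleus. In their list 10 of 14 genes were more negative in E0771-LG and 0 more positive, with a median interaction of -1.09 against 0.08 over all genes. Beside targets the list held Yap1 and Wwtr1, the genes of YAP and TAZ, and Tead1. In E0771 7 rose and 0 fell, and in E0771-LG 0 rose and 9 fell. Axl, a receptor tyrosine kinase, stood at 8.45, 8.51 and 8.50 in E0771shCtrl and 8.97 to 9.06 in the 3 E0771shPTN samples, then 7.69, 7.66 and 7.64 in E0771-LGshCtrl and 6.76, 6.67 and 6.92 in E0771-LGshPTN. The 4 groups of Axl were fully separate, with opposite changes in the lines (interaction -1.40 ± 0.11, adjusted p = 2.64e-06). Crim1, a membrane protein that binds BMPs, changed by 0.64 ± 0.12 and -0.66 ± 0.12 (interaction -1.30 ± 0.17, adjusted p = 0.000125), and Arhgef17, an activator of RhoA, by 0.51 ± 0.12 and -0.58 ± 0.12 (interaction -1.09 ± 0.17, adjusted p = 0.00031). Tead1, the DNA-binding partner itself, fell in E0771-LG from 7.60, 7.53 and 7.84 to 6.37, 6.30 and 6.61 and lay at 7.22 to 7.67 in E0771 (interaction -1.38 ± 0.17, adjusted p = 6.19e-05). The target Ccn1, a matricellular protein, was not called by the interaction (-0.81, adjusted p = 0.1145 with limma). E0771-LGshCtrl replicate 2 was the lowest of its group for several targets, as for Ccn1, at 7.34, 6.19 and 7.02, and Ajuba, a LIM protein, at 5.86, 5.01 and 5.72. With the length trend removed 9 were more negative and 0 more positive, and without that sample, an alternative chosen after the data were seen, 11 and 0.

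Promoter sequence was read for this list because its members moved together and TEAD factors bind GGAATG. RefSeq windows of 300 bases around the start were held for 10 of the 14 genes, and 9 of these carried GGAATG on either strand, namely Ajuba, Amotl2, Ankrd1, Axl, Ccn1, Crim1, Lats2, Wwtr1 and Yap1. The letters were in 14.7% of all 32851 windows and in the windows of 13.9% of 8446 tested genes. In the classes they were found for 20.8% of genes up in E0771 and down in E0771-LG, 22.3% of those up in E0771 alone, 12.8% of those down in E0771 alone, 13.3% of those down in E0771 and up in E0771-LG, and 13.5% and 12.6% of those up and down in E0771-LG alone. This was 1 of 6 motifs searched, chosen with the values known, no test was made, and a match is a description of letters. The windows of Axl and Crim1, named above, and Amotl2, a YAP-binding angiomotin gene picked after its values were seen (1.49 ± 0.33 in E0771, -0.89 ± 0.33 in E0771-LG), are printed because these 3 changed in opposite directions. The E0771-LG groups of Amotl2 overlapped, at 5.82, 4.53 and 5.48 in the controls and 4.82, 4.10 and 4.25 with knockdown. Capitals mark GGAATG, or CATTCC where it lies on the other strand, in build GRCm38.p6.
Axl, chr7:25788684-25788983, - strand: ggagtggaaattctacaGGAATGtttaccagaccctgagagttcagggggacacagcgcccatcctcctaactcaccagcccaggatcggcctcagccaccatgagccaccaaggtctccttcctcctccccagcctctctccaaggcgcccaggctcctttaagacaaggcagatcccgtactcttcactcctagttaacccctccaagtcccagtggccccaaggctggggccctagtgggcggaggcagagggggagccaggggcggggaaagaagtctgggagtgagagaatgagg
Crim1, chr17:78199998-78200297, + strand: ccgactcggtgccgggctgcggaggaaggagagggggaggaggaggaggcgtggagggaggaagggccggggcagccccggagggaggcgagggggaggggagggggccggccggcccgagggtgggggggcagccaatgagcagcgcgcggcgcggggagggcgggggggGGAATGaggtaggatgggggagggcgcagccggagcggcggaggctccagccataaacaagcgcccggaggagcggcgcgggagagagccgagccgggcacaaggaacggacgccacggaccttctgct
Amotl2, chr9:102717554-102717853, + strand: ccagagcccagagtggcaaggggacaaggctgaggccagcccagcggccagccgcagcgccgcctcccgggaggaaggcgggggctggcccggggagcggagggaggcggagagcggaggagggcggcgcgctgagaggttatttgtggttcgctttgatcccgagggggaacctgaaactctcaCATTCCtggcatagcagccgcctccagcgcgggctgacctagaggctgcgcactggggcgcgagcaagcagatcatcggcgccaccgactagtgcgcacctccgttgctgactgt

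Cholesterol synthesis genes, which SREBP-2 switches on when sterols run low, divided the lines as well. Of 23 genes tested 15 were more negative and 1 more positive in E0771-LG, with a median interaction of -0.68. In E0771 14 rose and 1 fell, in E0771-LG 3 rose and 12 fell, and 8 changed in opposite directions. Idi1, isopentenyl-diphosphate isomerase, stood at 5.34, 5.11 and 4.87 in E0771shCtrl and 6.27, 6.56 and 6.42 in E0771shPTN, and at 6.20, 6.08 and 5.88 in E0771-LGshCtrl and 5.26, 5.03 and 5.28 in E0771-LGshPTN. Each knockdown group of Idi1 lay near the control group of the other line (interaction -2.17 ± 0.19, adjusted p = 4.95e-06). Stard4, a carrier of cholesterol between membranes, fell in E0771-LG alone (interaction -1.41 ± 0.14, adjusted p = 1.63e-05). Pmvk, the phosphomevalonate kinase, was the exception, down in E0771 and up in E0771-LG (interaction 1.34 ± 0.29, adjusted p = 0.00383). The counts were 16 more negative and 1 more positive with the length trend removed.

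The same 6 motifs were read in the 15 windows held for these genes. CCAAT, the site of the factor NF-Y, was in 14 of them, all but that of a single gene, and in 37.4% of all windows and the windows of 43.2% of tested genes. TCACNCCAC, which resembles a sterol response element, was in 1 of 15, that of Hmgcs1, and in 1.24% of all windows and the windows of 1.4% of tested genes. GGAATG was in 0 of 15, and CCAAT was in 3 of the 10 windows of YAP and TAZ targets. It was also in 15 of 22 windows (68.2%) of the stress response list, whose calls lean the other way, in 7 of 15 of the AP-1 list and in 7 of 19 of ribosomal protein genes. CCAAT was found for 40.8% to 46.1% of genes in the 6 classes. The windows of Idi1 and of Cyp51, the lanosterol demethylase, are printed as examples of opposite members with the letters. Their first match lies at -45 and -29 relative to the start, and positions in the other windows were not compared. Cyp51 was picked after its values were seen (0.67 ± 0.12 in E0771, -0.32 ± 0.12 in E0771-LG). Capitals mark CCAAT or its reverse ATTGG.
Idi1, chr13:8885356-8885655, + strand: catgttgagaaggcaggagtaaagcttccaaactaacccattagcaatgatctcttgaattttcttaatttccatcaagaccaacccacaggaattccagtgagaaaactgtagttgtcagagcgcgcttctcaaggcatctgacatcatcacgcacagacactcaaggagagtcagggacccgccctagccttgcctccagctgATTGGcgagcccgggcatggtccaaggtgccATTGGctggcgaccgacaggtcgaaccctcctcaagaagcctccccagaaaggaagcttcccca
Cyp51, chr5:4104648-4104947, - strand: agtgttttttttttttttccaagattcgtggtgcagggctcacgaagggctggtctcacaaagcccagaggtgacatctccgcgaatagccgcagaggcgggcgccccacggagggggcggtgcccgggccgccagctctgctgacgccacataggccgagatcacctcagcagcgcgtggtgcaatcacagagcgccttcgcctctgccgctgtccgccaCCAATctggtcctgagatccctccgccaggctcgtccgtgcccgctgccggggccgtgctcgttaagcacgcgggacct

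**Figure D5:**
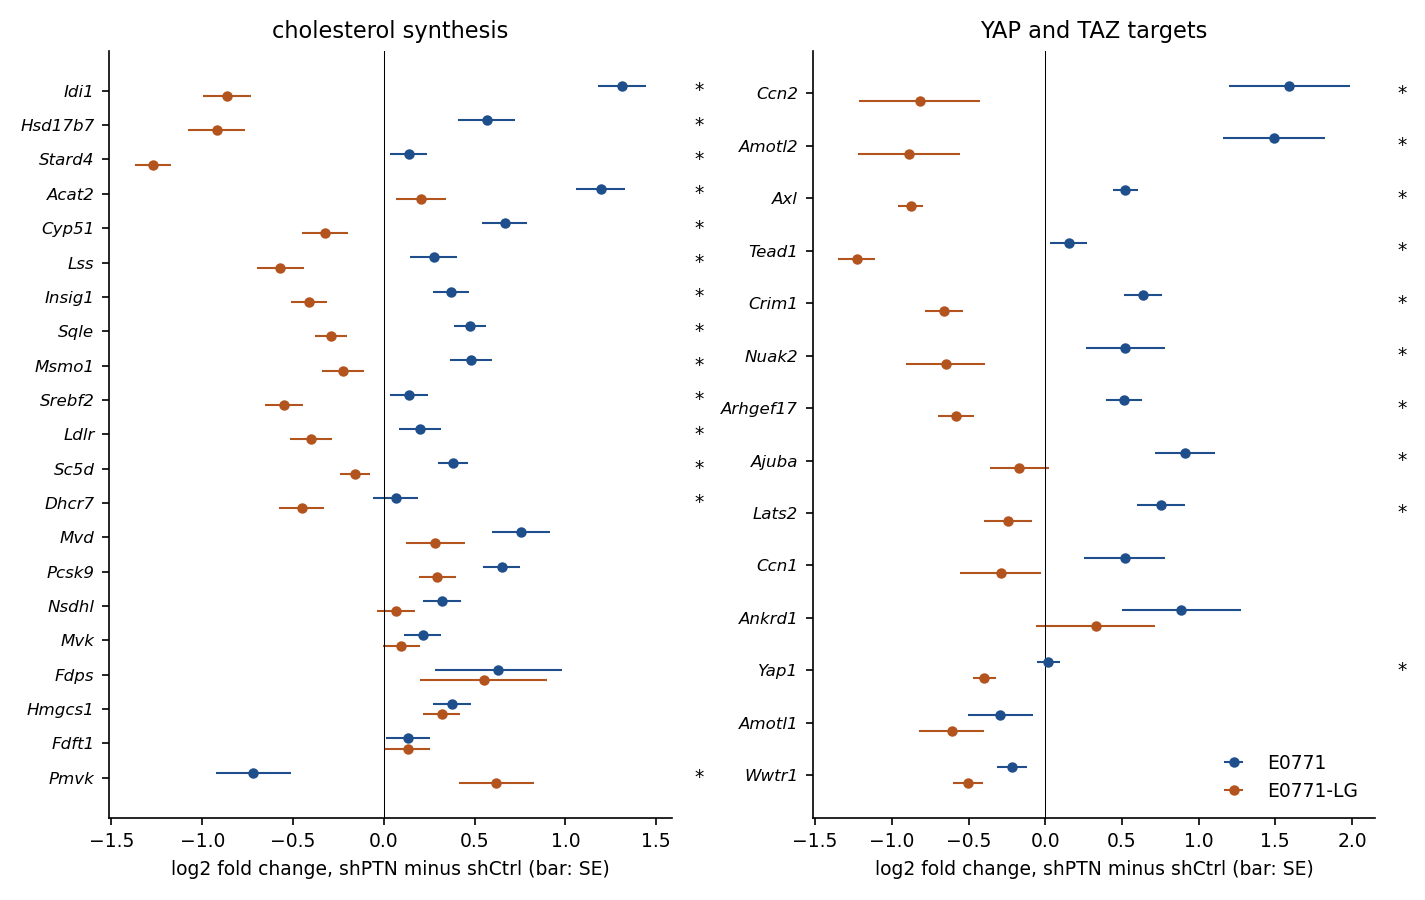
Log2 fold change, shPTN minus shCtrl, of cholesterol synthesis genes (left) and YAP and TAZ targets (right) in E0771 (blue) and E0771-LG (brown), with SE bars; stars mark an interaction with adjusted p under 0.05. Most blue points lie right of 0 and most brown points left of it, with Pmvk reversed.

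In a list of 14 mesenchymal genes tested, 8 were more negative in E0771-LG and 0 more positive, with a median interaction of -0.75. In E0771 6 rose and 0 fell, in E0771-LG 3 rose and 9 fell, and 3 changed in opposite directions. Beside Axl and Acta2, Mmp2, a gelatinase, went from 3.66, 4.11 and 3.94 to 5.16, 5.29 and 5.16 in E0771 and from 4.61, 5.31 and 5.12 to 4.27, 4.27 and 4.30 in E0771-LG (interaction -2.04 ± 0.23, adjusted p = 3.5e-05). Prrx1, a homeobox factor of mesenchyme, fell in E0771-LG from 7.20, 7.25 and 7.14 to 5.85, 6.11 and 6.14, to the lower end of the 5.96 to 6.51 range of the E0771 samples or below it (interaction -1.17 ± 0.17, adjusted p = 0.000268). The transcription factors Zeb1 (interaction -0.69 ± 0.19, adjusted p = 0.014) and Zeb2 (-0.58 ± 0.19, adjusted p = 0.0259) were also more negative, though neither passed with the length trend removed, nor Zeb2 without E0771shCtrl replicate 3, E0771shPTN replicate 2 or 3, E0771-LGshCtrl replicate 3 or E0771-LGshPTN replicate 2. Twist1, Twist2 and the protease gene Mmp14 were the 3 that rose in E0771-LG, by 0.49 ± 0.09, 0.33 ± 0.13 and 0.49 ± 0.14, and none of them was called by the interaction. Vim, which encodes vimentin, was not called (-0.22 ± 0.12, adjusted p = 0.173), except with quantile normalization. With the length trend removed 6 of the 14 were more negative and 0 more positive, and in E0771-LG 1 rose and 10 fell. With median-of-ratios size factors or quantile normalization 2 rose and 9 fell in E0771-LG.

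Of 19 fibrillar collagen and matrix genes, 9 were more negative and 2 more positive in E0771-LG, with a median interaction of -0.87. In E0771 10 rose and 0 fell, and in E0771-LG 4 rose and 5 fell. Col3a1, the chain of type III collagen, had 333, 441 and 386 reads in E0771shCtrl and 3471, 2225 and 2470 in E0771shPTN, against 55 to 136 in the 6 E0771-LG samples. Only the E0771shPTN samples exceeded 441 reads (interaction -3.29 ± 0.33, adjusted p = 1.67e-05). Col1a1 rose in E0771 by 1.02 ± 0.33 (adjusted p = 0.0458) and fell in E0771-LG by -4.68 ± 0.33, from 188, 184 and 211 reads to 12, 3 and 10. Loxl2, a collagen cross-linking oxidase, rose in both lines, by 2.51 ± 0.18 and 1.20 ± 0.18 (interaction -1.31 ± 0.25, adjusted p = 0.00156), and Sparc rose by 1.33 and 1.30 with an interaction of -0.03 ± 0.13 (adjusted p = 0.895). Matrix genes therefore did not all part the lines. The summed fibroblast markers given above, which share Col1a1, Col3a1, Dcn and Col1a2 with this list, were also higher in E0771shPTN and lower in E0771-LGshPTN than in the controls, in E0771-LG through Pdgfra, Pdgfrb and Col1a1 and against Dcn and Col1a2.

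Basement membrane and TGF-beta genes held further opposite members. Of 19 basement membrane and integrin genes 1 was more positive and 5 more negative in E0771-LG, a share of negative calls above the 15.7% of all genes, though the median interaction of -0.14 became 0.01 with the length trend removed. Lamb1, a laminin chain whose groups did not overlap in either line, changed by 1.13 ± 0.16 and -0.52 ± 0.16 (interaction -1.66 ± 0.23, adjusted p = 0.000223), and Col4a2, a chain of type IV collagen, by 1.03 ± 0.19 and -0.56 ± 0.19 (interaction -1.59 ± 0.27, adjusted p = 0.00103). The E0771-LG groups of Col4a2 overlapped, at 7.72, 8.54 and 8.71 in the controls and 7.85, 7.66 and 7.79 with knockdown. Of 21 genes of TGF-beta and BMP signalling 4 were called in each direction, near the shares over all genes, and 2 were more positive and 5 more negative with the length trend removed. Tgfb2, a TGF-beta ligand, changed by 1.53 ± 0.25 and -0.94 ± 0.25 (interaction -2.47 ± 0.36, adjusted p = 0.000256), and its E0771-LG groups overlapped, at 3.99, 3.15 and 3.90 against 3.18, 2.63 and 2.42. Tgfbi, a matrix protein that TGF-beta induces, rose in E0771 alone from 4.18, 3.20 and 3.78 to 5.97, 5.70 and 5.83, with 4.11 to 4.40 in E0771-LG (interaction -2.17 ± 0.27, adjusted p = 7.2e-05). Bmp7, a BMP ligand, leaned the other way. It had 17, 19 and 25 reads in E0771-LGshCtrl and 357, 337 and 252 in E0771-LGshPTN. In E0771 it had 99, 159 and 111 reads in the controls and 243, 249 and 204 with knockdown.

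Immediate early and AP-1 factors leaned the other way. Of 22 tested, 10 were more positive and 1 more negative in E0771-LG, with a median interaction of 0.41, and in E0771 12 fell and 1 rose. In E0771-LG 4 rose and 5 fell. Without E0771-LGshCtrl replicate 2, an alternative chosen after the data were seen, 7 rose and 4 fell in that line. Over all genes tested 7.61% rose and 10.3% fell in E0771, and 26.0% and 23.9% in E0771-LG. Beside Klf2, Jund, an AP-1 subunit, went from 7.27, 7.34 and 7.65 to 7.05, 6.42 and 6.82 in E0771 and from 6.98, 7.19 and 7.09 to 7.55, 7.88 and 7.89 in E0771-LG (interaction 1.34 ± 0.21, adjusted p = 0.000482). Klf4, a factor of epithelial differentiation, fell in E0771 alone, from 5.05, 4.88 and 4.88 to 3.76, 4.03 and 3.92, with 4.87 to 5.18 in E0771-LG (interaction 1.02 ± 0.17, adjusted p = 0.000707). Dusp1, a MAP kinase phosphatase, was the member more negative in E0771-LG and rose in both lines (interaction -0.65 ± 0.16, adjusted p = 0.00743). The AP-1 letters TGANTCA were in 0 of 15 windows held for this list and TGACGTCA in 1, against 7.81% and 1.79% of all windows and the windows of 6.38% and 3.75% of tested genes. With the length trend removed 9 were more positive and 1 more negative.

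Genes of the unfolded protein and integrated stress responses were counted next. Of 22 tested 10 were more positive by the interaction and 1 more negative, with a median of 0.41. In E0771-LG 13 rose and 2 fell, where 26.0% of all genes rose and 23.9% fell. Atf4, the transcription factor at the center of the integrated stress response, went from 8.83, 9.15 and 8.87 to 9.59, 9.82 and 9.73 in E0771-LG and from 8.97, 8.93 and 9.03 to 8.76, 8.62 and 8.66 in E0771. All E0771-LGshPTN samples exceeded every other sample (interaction 1.06 ± 0.14, adjusted p = 8.99e-05). Its targets Ddit3, which encodes CHOP (interaction 1.54 ± 0.35, adjusted p = 0.0055), Chac1, a glutathione-degrading enzyme (1.49 ± 0.31, adjusted p = 0.00284), and Trib3, a pseudokinase (0.98 ± 0.21, adjusted p = 0.00356), were more positive as well. Other targets of ATF4 were not: Psat1, an enzyme of serine synthesis, was more negative (-0.44 ± 0.13, adjusted p = 0.02), and Slc7a11, the cystine carrier, fell in both lines (interaction 0.02 ± 0.25, adjusted p = 0.965). With the length trend removed 7 were more positive and 1 more negative, and the median interaction was 0.22. In E0771-LG 8 then rose and 3 fell, and the median change there was 0.20 in place of 0.41.

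Ribosomal and respiratory genes are short, and their counts changed with length. Of 28 cytosolic ribosomal protein genes 16 were more positive in E0771-LG and 0 more negative, with a median interaction of 0.47, as for Rpl5, at 9.96, 9.98 and 9.87 in E0771-LGshCtrl and 10.58, 10.74 and 10.66 in E0771-LGshPTN (interaction 0.82 ± 0.12, adjusted p = 0.000278). With the length trend removed 6 were more positive and 2 more negative, with a median of 0.04, and Rpl4 and Rps15 no longer passed. Of 26 genes of oxidative phosphorylation 9 were more positive and 2 more negative, with a median of 0.36, and with the trend removed 1 and 3, with a median of 0.08. The part of length in the other results was not tested beyond the counts given.

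Interferon genes were mostly not called by the interaction. Of 24 antiviral effectors 1 was more negative in E0771-LG and 0 more positive, below the shares over all genes, while 4 fell in E0771 and 14 fell in E0771-LG. Over all genes tested 10.3% fell in E0771 and 23.9% in E0771-LG. E0771-LGshCtrl replicate 2 stood apart in this list, as for Usp18, which removes ISG15 from proteins, at 128, 1050 and 242 reads in that group, and Isg15 itself, at 304, 1362 and 366. Without that sample, again an alternative chosen after the data were seen, 2 of the 24 were more positive and 1 more negative, 10 fell in E0771-LG, and the median interaction was 0.25 in place of -0.17. Oas3, a sensor of viral RNA, was also highest in replicate 2 of E0771shCtrl, at 389, 1350 and 694 reads. The 1 negative call with all samples was Ifit2, which blocks translation of viral RNA, at 4.58, 5.30 and 4.76 in E0771-LGshCtrl and 3.57, 3.38 and 3.71 in E0771-LGshPTN and at 5.23 to 5.78 in E0771 (interaction -1.51 ± 0.25, adjusted p = 0.000491). Of 18 interferon-gamma and GTPase genes 2 were called in each direction, H2-K1 and Tap2 being the positive ones, and the negative count was 4 with median-of-ratios size factors, with quantile normalization and with the length trend removed. Without E0771-LGshCtrl replicate 2 it was 1, with 2 positive, and the median interaction was 0.23 in place of -0.07. Of 25 chemokines and NF-kB targets 3 were more positive and 4 more negative, shares near those of all genes. Csf1, the macrophage growth factor, fell in E0771-LG alone, from 7.86, 7.93 and 8.16 to 7.41, 7.05 and 7.03, with 7.15 to 7.74 in E0771 (interaction -1.12 ± 0.17, adjusted p = 0.000325). Nfkbia, the inhibitor of NF-kB, changed by -0.56 ± 0.12 in E0771 and 0.42 ± 0.12 in E0771-LG (interaction 0.98 ± 0.17, adjusted p = 0.000693).

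A further promoter search bore on Acta2 and Myl9, since SRF, the factor of contractile genes, binds the CArG box. The motif, a run of A and T bases between paired C and paired G, was in 1.63% of all windows, in those of 1.5% of tested genes and in those of 1.95% of genes up in E0771 and down in E0771-LG. In this exact form it was in 1 place in the window of Myl9 and not in that of Acta2, and Thbs1 had no window. Boxes with a G or C inside the run were not searched for, so a variant box in Acta2 would be missed. The window of Myl9 is printed with the box in capitals, from build GRCm38.p6.
Myl9, chr2:156775214-156775513, + strand: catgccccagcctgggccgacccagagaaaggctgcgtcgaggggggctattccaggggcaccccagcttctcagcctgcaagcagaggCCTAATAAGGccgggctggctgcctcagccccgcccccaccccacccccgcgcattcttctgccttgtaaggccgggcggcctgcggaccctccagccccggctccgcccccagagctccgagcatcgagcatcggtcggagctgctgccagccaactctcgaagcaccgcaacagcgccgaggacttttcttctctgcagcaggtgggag

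Tumor samples of the series, which took no part in choosing the genes, were measured under another agent, the PTN antibody 3B10 against the control antibody C44, with 3 samples each in MMTV-PyMT and 4T1 tumors. Of the 30 genes named by class, 28 could be tested in each model. In MMTV-PyMT tumors 17 had a positive and 11 a negative log2 fold change, from -1.51 to 2.92, and in 4T1 tumors, whose values are in an unstated unit, 11 were positive and 17 negative, from -0.76 to 0.67. None of them passed with limma (lowest adjusted p = 1 and adjusted p = 0.723). Acta2 changed by 0.00 ± 0.22 in MMTV-PyMT and 0.24 ± 0.46 in 4T1, and Klf2 by 0.16 ± 0.38 and -0.20 ± 0.20. Over all genes limma called 0 of 11381 and 0 of 11632 at an adjusted p under 0.05, with 309 and 724 at an unadjusted p under 0.05, so the tumors do not show whether the cell line differences hold under antibody.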

How the data were processed

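Gene-level log2 values were used as deposited by the authors, whose alignment used Hisat2 on mm10, whose gene counts came from featureCounts and whose tests used edgeR; versions were not given in the sources used here. In the 12 cell samples each log2 value was the logarithm of CPM after 0.5 reads were added, and 100% of values gave whole reads within 0.01. The file covered 12091 genes, of which 10608 with at least 1 CPM in at least 3 of 12 samples were tested. limma 3.58.1 in R 4.3.3 was fitted to 4 group means with a trended, robust variance, and p was adjusted over the genes tested by the Benjamini-Hochberg method. A gene was called at an adjusted p under 0.05. From each class 5 genes were named among those with a group mean log2 of 3 or more, groups that did not overlap in each line called and, in 1-line classes, a change under 0.3 in the other line; they were ranked by the smaller change in the opposite classes and by the interaction in the others. From each list up to 4 genes with the smallest interaction p were taken, and only some of these are described. Members and lists were chosen with earlier results of these data known. The 4T1 values were in a unit not given in the sources used here, and their depth is unknown. Transcript lengths came from GENCODE M21 and promoter windows from RefSeq GRCm38.p6. The values of 2 genes counted in the cholesterol list are not reported here.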

Additional observations from a re-analysis of the deposited data

Results flagged for a closer look

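The interaction called 3603 of 10608 genes, a difference between groups that the series text does not count. The 7 items here are that count and the gene ranked first by the naming rule in each of the 6 classes. Dnase1l1 had an interaction of 2.59, with 1 E0771shPTN sample far below the others of its group. Ptgs2 (-5.42), Magea9 (-4.99), H2-K1 (7.52) and Sema3c (-7.51) each had a group near 0 reads, so these fitted values depend on the 0.5 reads added. Irf8 had an interaction of 2.08 that lost its call with voom weights.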

How the results depend on the processing

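The 3603 interaction calls became 1873 at an adjusted p under 0.01, with 104 opposite genes, 238 in E0771 alone and 1361 in E0771-LG alone; the stricter threshold itself shows the cause. With 1 sample left out, fewer samples were fitted, and the interaction called 2641 to 3909 genes, with 166 to 392 opposite genes, 294 to 560 in E0771 alone and 1711 to 2692 in E0771-LG alone. Filters, a pseudocount of 1, size factors, quantile normalization, voom weights on recovered reads (3599 genes called) and a variance fit that was not robust each moved the counts by less than 1.5 times. Of 122 genes taken by the naming rule, none reversed in these alternatives, and 14 lost their call in at least 1 alternative (Gbp2, Bbc3, Tet2, Fas, Irf8, Cxcl1, Lyz2, Ocln, Zmat3, Gstp1, Ndufv1, Uqcrc2, Rpl4 and Rps15). Of 28 genes mentioned after their values were seen, put through the same alternatives at that point, 10 were called; 4 of these lost their call in at least 1 (Dcn, Ptprz1, Zeb2 and Zeb1), Psmb8, Vim and Ccn1 gained one and 0 reversed. The cause of these losses and gains was not tested. The replicate number as a block gave 3763 calls, with 352 opposite genes, and samples correlated best with their own number in 2 of 6 comparisons, as a hint from the data and not the design. Genes at 0 to 3 reads in a group were limited by depth.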

Other observations

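Over all genes tested 18.3% were more positive and 15.7% more negative in E0771-LG by the interaction. With all samples the p53 and glycolysis counts given here lay below both shares. Of 32 mitosis and replication genes, 5 were more positive and 8 more negative in E0771-LG by the interaction, 3 and 11 with median-of-ratios size factors and 2 and 7 with the length trend removed. Of 15 IGF and ERBB genes 4 were more positive and 5 more negative (5 and 3 with the length trend removed), and of 13 Notch genes 3 and 4. Of 18 proteases and inhibitors 2 were more positive and 5 more negative, and 4 and 5 without E0771-LGshCtrl replicate 2. Of 20 NRF2 and glutathione genes 6 were more positive and 2 more negative, though their median of 0.05 became -0.00 with median-of-ratios size factors. Of 18 p53 targets 3 were more positive and 2 more negative, and of 9 epithelial genes 4 and 1. Of 27 glycolysis genes 3 were called in each direction, and 5 were more positive and 3 more negative without E0771-LGshCtrl replicate 2.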
